A study of Mus musculus with 2 samples.

Results

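Complement genes were examined in primary mouse osteoblasts that had been exposed to medium from 2 human prostate cancer cell lines. The genes were C2, C3, C4b, Cfb and Cfd, which encode components of the cascade, Serping1 and Cd55, which encode regulators, and C3ar1 and C5ar1, which encode receptors. Members were the probe sets that the platform annotation assigned to 1 of these 9 symbols and to no other gene. This gave 13 probe sets of 45037, for 6 genes of the 18193 with a probe set of their own. C4b was covered only by 1 probe set shared with C4a, and C3 and Cfd had no listed probe set, so these 3 genes were not analysed here.

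The osteoblasts had been differentiated for 10 days in alpha-MEM (fetal calf serum at 10%) with 50 µg/ml ascorbic acid and 10 mM beta-glycerophosphate. After a night without serum, 1 culture received PC-3 conditioned medium and the other MDA-PCa2b conditioned medium, each for 6 hours. Samples were grouped by their source descriptions. One title goes against this in part, since the PC-3 array is titled with both "MDA" and "PC-3", and the direction of every ratio rests on the source description. PC-3 is a bone-metastatic prostate cancer line known for bone-destroying lesions, and MDA-PCa2b is one known for bone-forming lesions; the series asked which osteoblast transcripts change in response to factors that these lines release. Mouse strain, age and the number of animals were not stated in the labels. No untreated culture is analysed here, so "higher" and "lower" set the PC-3 array against the MDA-PCa2b array.

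Complement is a chain of secreted proteases and their substrates that tags surfaces for uptake and calls in phagocytes. The classical and lectin pathways build a C3-cleaving enzyme from C4 and C2, and the alternative pathway builds its own from C3 and factor B. The small fragments released from C3 and C5 act on G-protein-coupled receptors, mainly of myeloid cells, and regulators such as C1 inhibitor and CD55 hold the cascade back. The liver makes most circulating complement, but fibroblasts, osteoblasts and macrophages also make components, and inflammatory cytokines are known inducers of several of these genes.

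With 1 array per medium there was no replicate, no SD between cultures and no test. Signals are linear MAS5 values, and a signal below the median of its array (57.7 with PC-3 medium and 56.7 with MDA-PCa2b medium) was treated as being at the floor. The 2 arrays had the same trimmed mean signal, 300.0. The only measurable error was how far probe sets of 1 gene scattered around their mean, an SD of 0.24 on the log2 ratio over 4924 genes. It was 0.30 in the lowest tertile of signals (up to 208), 0.25 in the middle tertile (up to 610) and 0.18 in the highest tertile. This scatter describes 1 pair of arrays and holds nothing of the spread between cultures. A gene counted as measured when both arrays lay above the floor, and over the 10649 measured genes the median log2 ratio was -0.04 with an SD of 0.44.

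The promoters of the receptor genes are shown because the probe sets of C3ar1 lay above the floor on both arrays and those of C5ar1 below it. Each line gives the 250 bases before the annotated start, from RefSeq (GRCm38.p6), 5′ to 3′ on the strand of the gene. C3ar1 is at chr6:122856158-122856407, minus strand, and C5ar1 at chr7:16259339-16259588, minus strand; the annotated C5ar1 gene also reaches upstream of this start, into the window. Capitals mark matches to the motifs described after the sequences.
C3ar1: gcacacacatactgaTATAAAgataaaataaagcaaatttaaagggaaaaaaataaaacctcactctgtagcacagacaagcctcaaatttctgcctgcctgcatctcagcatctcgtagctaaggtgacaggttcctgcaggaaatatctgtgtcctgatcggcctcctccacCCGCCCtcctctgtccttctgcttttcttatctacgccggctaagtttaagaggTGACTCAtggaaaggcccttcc
C5ar1: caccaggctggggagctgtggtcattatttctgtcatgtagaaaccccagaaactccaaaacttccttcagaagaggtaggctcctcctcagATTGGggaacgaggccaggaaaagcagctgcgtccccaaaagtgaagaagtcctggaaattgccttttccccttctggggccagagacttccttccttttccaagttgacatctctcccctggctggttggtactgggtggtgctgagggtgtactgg

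Each motif was searched on both strands, and its share among 27025 promoter windows of the same length is given beside it. The C3ar1 window held the letters of an AP-1 site (TGANTCA) starting 22 bases before the start, as did 6.87% of windows somewhere in their length. It held those of a GC box (GGGCGG) on the opposite strand, starting 76 bases before the start, as did 32.9% of windows. A TATA box (TATAAA), found in 13.0% of windows, lay 235 bases before the start. None of these matches overlapped. The C5ar1 window held a CCAAT box on the opposite strand, starting 158 bases before the start, as did 34.5% of windows. The letters GAGGAA, a strict form of a PU.1 site held by 23.1% of windows, were in neither of them. The same was true of a STAT site of the GAS type (TTCNNNGAA), held by 7.18% of windows. Shorter forms of the PU.1 site were not searched for. A match describes these letters alone. The promoter table held 5 of the 9 genes.

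Of the 5 measured complement genes, Cfb was 3.13-fold higher with PC-3 medium. Serping1 was 1.60-fold and C2 1.36-fold higher, C3ar1 1.16-fold higher and Cd55 1.17-fold lower by its representing probe set, with another of its probe sets the other way. At least 2-fold higher was 1 of 5 genes, against 1.90% of all genes measured, and at least 2-fold lower were 0 of 5, against 1.68%. At least 1.5-fold higher were 2 of 5, against 5.18% of all genes, and at least 1.5-fold lower were 0 of 5, against 6.23%. At least 3-fold higher was again 1 of 5, against 0.742%, and at least 3-fold lower were 0 of 5, against 0.338%. The median log2 ratio of the 5 genes was 0.45, beside -0.04 for all genes. This median is the value of C2, and it was 0.27 with probe sets averaged and 0.21 without those that can cross-hybridise. A probe set represents its gene here when it has the highest mean signal, and the others are given with it.

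**Figure D1:**
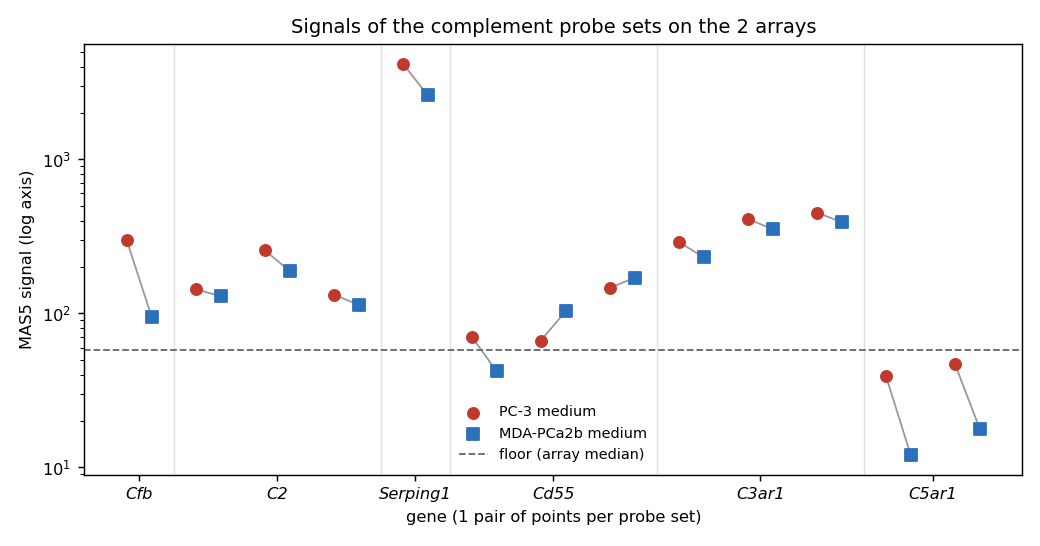
MAS5 signal (log axis) of each of the 13 complement probe sets, grouped by gene, with PC-3 medium (red circles) joined to MDA-PCa2b medium (blue squares); the dashed line is the floor of the PC-3 array, 57.7, and that of the other array was 56.7. Cfb lies at 298 with PC-3 medium and 95.3 with MDA-PCa2b medium, both above the floor, while both C5ar1 pairs lie below the floor.

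Cfb encodes factor B, the zymogen that supplies the protease of the alternative pathway C3 convertase. Its single probe set gave a signal of 298 with PC-3 medium and 95.3 with MDA-PCa2b medium, a log2 ratio of 1.65. The ratio was the 69th highest of 10649 genes, so that 0.648% of genes lay at least as high. Among the 2663 genes in the lowest 25% of signals, where Cfb lay, 0.563% did. The log2 ratio was larger than the scatter SD of 0.30 in the lowest tertile of signals. The signal with MDA-PCa2b medium was only 1.68 times the floor, and no second probe set was there to set beside it. The log2 ratio was between 1.498 and 1.69 under each alternative that could measure it. With the floor at the 75th percentile (299.8 with PC-3 medium and 299.0 with MDA-PCa2b medium) both Cfb signals lay below it and no ratio could be given.

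C2 encodes the corresponding protease zymogen of the classical and lectin pathways and is the close paralogue of Cfb. Its 3 probe sets were all slightly higher with PC-3 medium. The representing probe set gave 257 with PC-3 medium and 188 with MDA-PCa2b medium, a log2 ratio of 0.45. Another gave 143 with PC-3 medium and 129 with MDA-PCa2b medium (log2 ratio 0.15). The remaining probe set gave 133 with PC-3 medium and 113 with MDA-PCa2b medium (0.22). The representing and the remaining probe set carry a suffix that marks possible cross-hybridisation. Without such probe sets the log2 ratio of C2 was 0.15, smaller than the scatter SD of 0.30 at these signals.

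**Figure D2:**
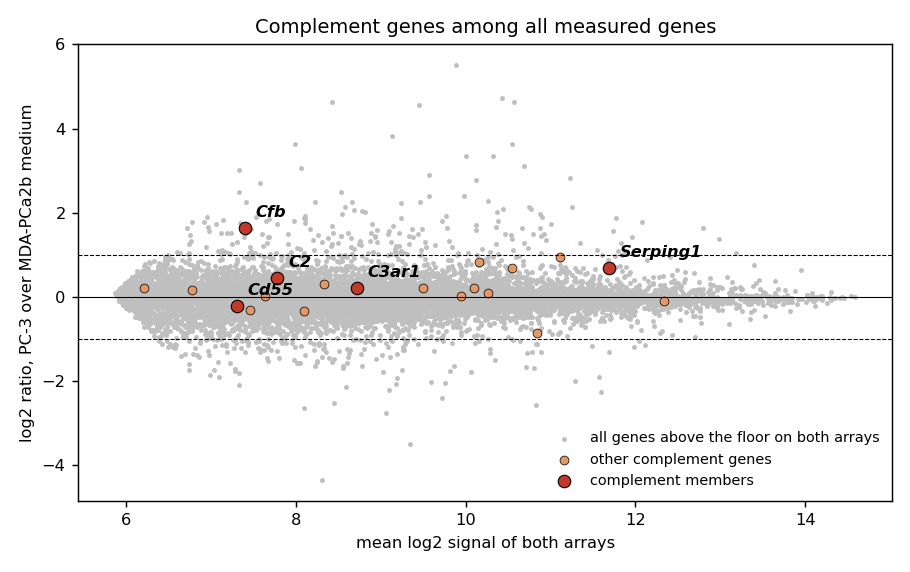
Log2 ratio (PC-3 over MDA-PCa2b medium) against the mean log2 signal of both arrays for the 10649 measured genes (grey), with the 5 measured complement members in red and 16 other complement genes in orange; dashed lines mark 2-fold differences. Cfb (1.65) is the only labelled gene outside the dashed lines, and Serping1 (0.68) lies among the highest 25% of signals.

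Cfb and C2 are direct neighbours in the reference annotation, with 0 protein-coding genes between them, in the region that also holds C4b. The 5 protein-coding genes on each side of C2, Cfb and C4b were read as a comparison. Of 15 such neighbours 11 were measured, and their median log2 ratio was 0.07. None of the 11 was at least 2-fold higher, against 1.90% of all genes, or at least 2-fold lower, against 1.68%. At least 1.5-fold higher was 1 of 11, against 5.18% of all genes. This was Fkbpl, a gene of the FK506-binding protein family, with 152 with PC-3 medium and 99.5 with MDA-PCa2b medium. At least 1.5-fold lower was 1 of 11, against 6.23%. This was the heat-shock gene Hspa1b, with 193 with PC-3 medium and 344 with MDA-PCa2b medium. Further Hspa1b probe sets had log2 ratios of -0.30 and -0.60. Nelfe and Zbtb12, the nearest neighbours on either side of the pair, had log2 ratios of -0.09 and 0.25.

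**Figure D3:**
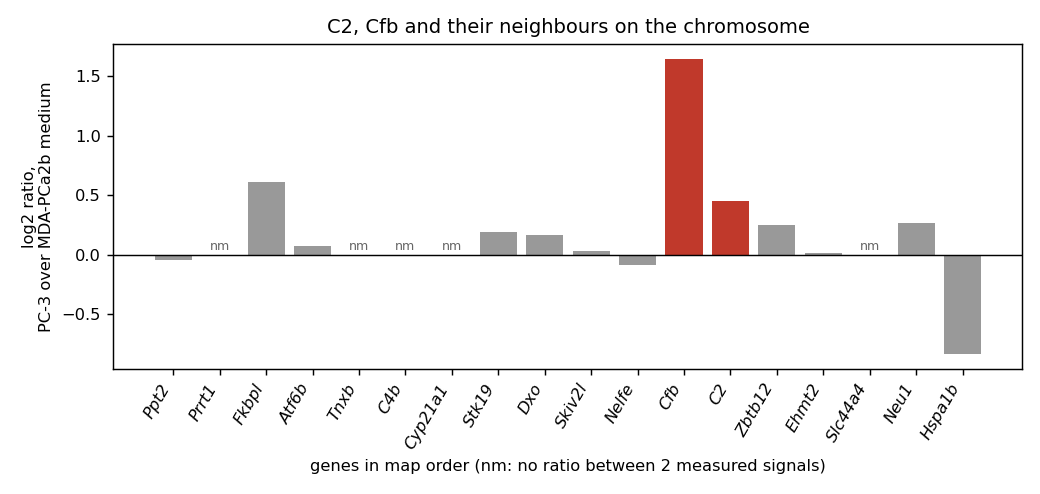
Log2 ratio (PC-3 over MDA-PCa2b medium) of Cfb and C2 (red) and of the protein-coding genes around C2, Cfb and C4b (grey), in map order and not to scale; nm marks genes that had no ratio of 2 measured signals. Cfb (1.65) stands above all measured neighbours shown, of which the highest is Fkbpl (0.61).

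Serping1 encodes C1 inhibitor, the secreted serpin that inactivates the C1r and C1s proteases and also kallikrein. Its single probe set gave 4182 with PC-3 medium and 2608 with MDA-PCa2b medium. The log2 ratio was 0.68, with 3.85% of all genes and 3.46% of the 2662 genes with the highest 25% of signals at least as high. It was 0.68 to 0.72 under the alternatives. The ratio exceeded the scatter SD of 0.18 in the highest tertile of signals, but no further probe set could be set beside it.

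The genes C1ra and C1s1, which encode the C1r and C1s proteases, were measured by a single probe set each. C1ra gave 1888 with PC-3 medium and 1175 with MDA-PCa2b medium, 1.61-fold higher. C1s1 gave 1525 with PC-3 medium and 862 with MDA-PCa2b medium, 1.77-fold higher. The recognition subunit C1q was nearly level: C1qa was 1.07-fold, C1qb 1.15-fold and C1qc 1.15-fold higher, and further C1qb probe sets were at 0.08 and -0.13 on the log2 scale. All 5 measured classical pathway starter genes thus had a ratio above 0, as did 44.1% of all genes, and 2 of the 5 were at least 1.5-fold higher, against 5.18% of all genes.

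Cd55 encodes decay-accelerating factor, a membrane-anchored regulator that takes apart C3 convertases, and its probe sets disagreed. The representing probe set gave 146 with PC-3 medium and 171 with MDA-PCa2b medium, a log2 ratio of -0.22. Another gave 66.6 with PC-3 medium and 103 with MDA-PCa2b medium, a log2 ratio of -0.63. The remaining one gave 70.4 with PC-3 medium and 42.1, below the floor, with MDA-PCa2b medium, which makes it at least 1.24-fold higher. Of the representing and the remaining probe set, both annotated to the same RefSeq transcript, one was lower and one higher. The representing signal was 2.54 times the floor with PC-3 medium and 3.01 times with MDA-PCa2b medium, and the others lay nearer to it, so the probe sets settle no direction for Cd55.

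C3ar1 encodes the receptor of the fragment C3a, and its 3 probe sets gave nearly the same small ratio. The representing probe set gave 452 with PC-3 medium and 390 with MDA-PCa2b medium (log2 ratio 0.21). Another gave 410 with PC-3 medium and 351 with MDA-PCa2b medium (0.22). The remaining one gave 290 with PC-3 medium and 231 with MDA-PCa2b medium (0.33). The span of 0.12 between these ratios was smaller than the scatter SD, and the ratio itself was near that SD, with 20.0% of all genes at least as high.

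C5ar1 encodes the receptor of C5a, a strong attractant of neutrophils and macrophages. Its brighter probe set gave 46.9 with PC-3 medium and 17.8 with MDA-PCa2b medium. The dimmer one gave 39.2 with PC-3 medium and 12.0 with MDA-PCa2b medium. Both were below the floor on both arrays, so no fold is given, although both signals were the larger ones with PC-3 medium. With the floor set at the 25th percentile the brighter probe set was measured and had a log2 ratio of 1.396, which made C5ar1 at least 2-fold higher. That floor was 14.1 with MDA-PCa2b medium, so the 17.8 lay just above it and the 12.0 of the dimmer probe set below it. With log2(signal + 16) the log2 ratio of C5ar1 was 0.90, less than 2-fold.

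Complement receptor genes are typical of myeloid cells, and markers of such cells were measured on both arrays. Of 14 macrophage and osteoclast markers 13 were measured, and the osteoclast gene Ocstamp was below the floor on both. The summed signal of all 14 was 26550 with PC-3 medium and 25995 with MDA-PCa2b medium. Much of it came from Lyz2 (9416 with PC-3 medium and 9194 with MDA-PCa2b medium) and Ctsk (7336 and 7420). The log2 ratios of the 13 ran from -0.23 to 0.59 with a median of 0.06, and the highest was that of the lysosomal gene Cd68. The pan-leukocyte gene Ptprc gave 370 with PC-3 medium and 433 with MDA-PCa2b medium, and the macrophage gene Adgre1 gave 1405 with PC-3 medium and 1346 with MDA-PCa2b medium. Which cells of the culture carried the C3ar1 and C1q transcripts was not tested. Fewer cells of a type and less RNA per cell cannot be told apart in such bulk RNA.

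The labelled cell type was present: all 9 osteoblast markers with a probe set of their own were measured, among them Col1a1, Ibsp and Sp7. All 9 log2 ratios were below 0, where only 44.1% of all genes had a ratio above 0. Of the 9 genes 2, Ifitm5 (-2.58) and Dmp1 (-2.05), were at least 2-fold lower, against 1.68% of all genes. Col1a1, Col1a2 and Sparc lay at -0.02 or nearer to 0 by their representing probe sets, above the median of all genes. Further probe sets were at -0.15 for Col1a1, at -0.59 and -0.08 for Col1a2, and at 0.03 and 0.33 for Sparc. The summed signal of the 9 genes was 89061 with PC-3 medium and 97855 with MDA-PCa2b medium. Of 7 neutrophil markers 6 were below the floor on both arrays, and Camp gave 60.3 with PC-3 medium, just above the floor, and 1.31 with MDA-PCa2b medium. All 6 endothelial markers were below the floor on both arrays. Of 9 adipocyte markers 5 were measured, with a median of -0.12 and a range from -0.33 to 0.98, the highest being Fabp4. Among the measured ones, Adipoq gave 139 with PC-3 medium and 101 with MDA-PCa2b medium, and Lpl gave 2107 and 2652. Pparg was above the floor with MDA-PCa2b medium only, at 60.7. The adipocyte genes Cidec, Retn and Lep were below the floor on both arrays. The part of these cell types in the complement ratios was not tested.

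Of 48 other complement genes 40 had a probe set of their own, and 16 were measured. Their median log2 ratio was 0.18, beside -0.04 for all genes. At least 1.5-fold higher were 3 of 16, against 5.18% of all genes, and at least 1.5-fold lower was 1 of 16, against 6.23%. None was at least 2-fold higher, against 1.90% of all genes, or at least 2-fold lower, against 1.68%. The 3 were C1ra, C1s1 and Clu. Clu, which encodes clusterin, a chaperone that also blocks the membrane attack complex, gave 3085 with PC-3 medium and 1591 with MDA-PCa2b medium (1.94-fold higher). The 3 further probe sets of Clu had log2 ratios of 0.997, 0.91 and 0.83, so all 4 were of like size. The lower gene was Thbd, which encodes thrombomodulin, a membrane cofactor that also curbs complement, with 1358 with PC-3 medium and 2475 with MDA-PCa2b medium (1.82-fold lower).

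**Figure D4:**
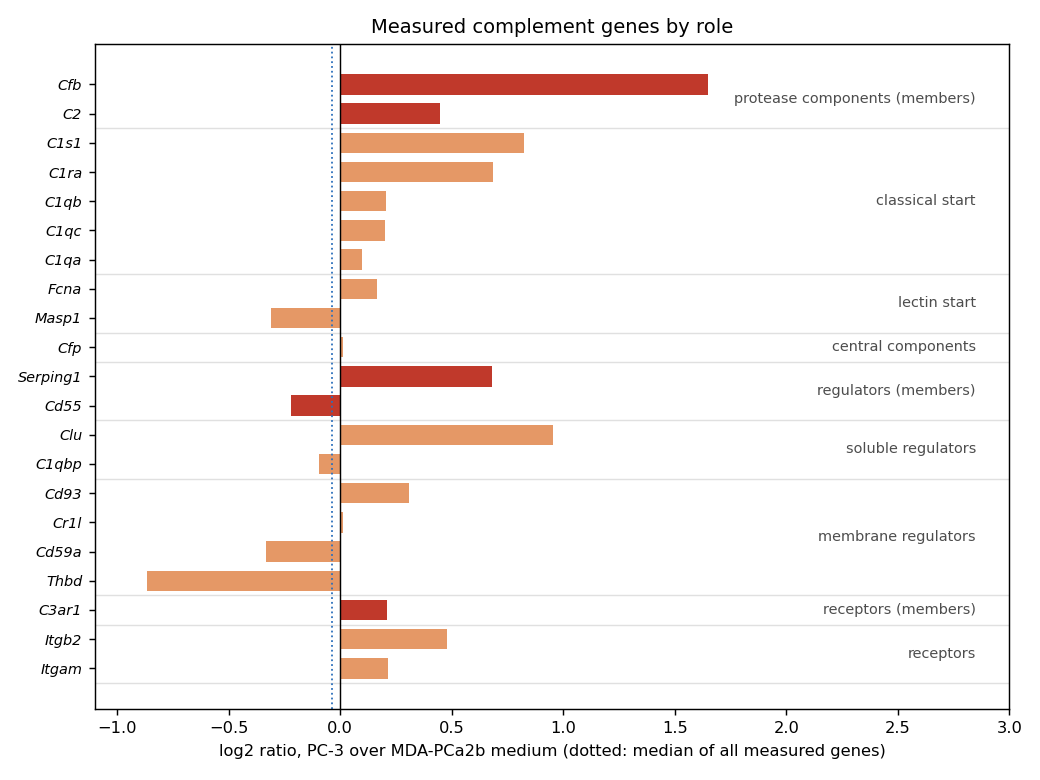
Log2 ratio (PC-3 over MDA-PCa2b medium) of the 21 measured complement genes, grouped by role, with members in red and other complement genes in orange; the dotted line is the median of all genes, -0.04. Cfb (1.65) has the longest bar, Clu (0.96), C1s1 (0.82), C1ra (0.68) and Serping1 (0.68) follow, and Thbd (-0.87) lies farthest below 0.

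None of the remaining genes was 1.5-fold different by its representing probe set. The 6 terminal pathway genes with a probe set, including Hc, the gene of C5, and C6 and C9, which build the membrane attack complex, were all below the floor on both arrays. In the lectin pathway Fcna and the protease gene Masp1 were measured, with log2 ratios of 0.16 and -0.31. Further Masp1 probe sets were at -0.85 and -0.28, so all 3 measured ones were lower. Cfp, the gene of properdin, which stabilises the alternative convertase, was 1.01-fold higher, with a further probe set at 0.19 on the log2 scale. Among membrane regulators Cr1l, the mouse regulator Crry, was at 0.01 and Cd59a, an inhibitor of the membrane attack complex, at -0.33, with a further probe set each, at 0.12 for Cr1l and -0.28 for Cd59a. Cd93 was at 0.31 and, by a further probe set, at 0.49. The integrin chains of complement receptor 3, Itgb2 and Itgam, were at 0.48 and 0.21 on the log2 scale.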

How the data were processed

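Total RNA (5 µg) from each culture was labelled as biotinylated cRNA and hybridised to 1 Affymetrix mouse array. The submitters' processing notes name GCOS 1.4 and MAS5, with which the authors turned scans into the deposited probe set signals, a linear intensity; scaling target and detection calls: not given in the sources used here. Of 45101 probe sets 64 controls were left out, and 0 per-sample columns were unused. The annotation gave 1 gene for 34958 probe sets, several for 932 and none for 9211. Of the 34958 probe sets, 34754 had an Entrez identifier that matched GRCm38.p6.

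On each array, signals under its 50th percentile were raised to that value before log2, and ratios are PC-3 minus MDA-PCa2b. A gene was represented by its brightest probe set (mean signal). Members, gene lists and alternatives were chosen with earlier results of these data known. All members were named with every probe set; other complement genes were named with values where at least 1.5-fold different, and those named beyond this were chosen after their values were seen. Python 3.11.15, numpy 2.4.6 and pandas 2.3.3 were used, and scripts were tested on simulated data. The number of arrays limits the precision: no p-value could be computed. Tried instead were a 25th or 75th percentile floor, log2(signal + 16), quantile normalisation, centring on the median ratio and averaging probe sets. Also tried were dropping all probe sets with an _s_at, _x_at or _a_at suffix, and thresholds of 1.5-fold and 3-fold.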

Additional observations from a re-analysis of the deposited data

How the results depend on the processing

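The count of complement genes at least 2-fold higher with PC-3 medium was 1 of 5 measured in the values reported above. A 25th percentile floor gave 2 of 6, since C5ar1 became measurable with a log2 ratio of 1.396. A 75th percentile floor gave 0 of 2, since only Serping1 and C3ar1 were then measured. A 1.5-fold threshold gave 2 of 5, against 5.18% of all genes. With log2(signal + 16) the C5ar1 ratio was 0.90. The count at least 2-fold lower was 0 in each alternative. The median of the members ranged from 0.21, without probe sets that can cross-hybridise, to 0.56 under the 25th percentile floor, and that of the other complement genes from 0.11 to 0.22. Of all measured genes, 1.90% were at least 2-fold higher as reported, 3.13% with the 25th and 1.39% with the 75th percentile floor. With log2(signal + 16) the share was 2.90%, and the member count was 1 of 6. Cfb, Serping1, C2 and C3ar1 kept their sign in each alternative that measured them. Every alternative reused the same 2 arrays, and all probe sets of these genes were already higher. The kept signs therefore say nothing about how the ratios would repeat. For Cd55 no alternative used the probe set that went the other way. No paired analysis was possible because there was 1 array per medium. Signals near the floor limit Cfb with MDA-PCa2b medium and Cd55 on both arrays.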
